A study of Mus musculus with 35 samples.

Results

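The genes described here are 36 markers of the non-parenchymal wall of the mouse liver sinusoid, 23 of its endothelial cells and 13 of hepatic stellate cells. They were listed by symbol and looked up in the deposited count table through the GENCODE vM21 annotation. All 36 were among the 55413 genes of the table, and 35 passed the filter on low counts that left 15297 genes for testing. The gene that did not pass was Wnt9b, an endothelial Wnt ligand, with 0 to 9 counts per mouse.

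The study asked what knocking down the methyltransferase gene Smyd3 with an antisense oligonucleotide (ASO) does to liver tumours induced with diethylnitrosamine (DEN), a liver carcinogen. All mice were C57Bl6. The Smyd3-ASO group (6 mice, 14 libraries) got 25 mg/kg DEN at day 14 and 50 mg/kg Smyd3-ASO 2 times a week from day 133 to day 260. The control-ASO group (6 mice, 12 libraries) got the same DEN and a control ASO on the same schedule. The DEN day-133 group (4 mice) got DEN alone and was killed at day 133. The untreated group (5 mice) got neither agent and was killed at day 260. The labels call the tissue of the 3 DEN groups DEN-induced tumour and that of untreated mice normal liver. RNA came from liver pieces, and how much of a piece was tumour is not given. Control-ASO and untreated mice therefore differ in DEN, in ASO and in tissue. DEN day-133 and untreated mice differ in DEN, in tissue and in age, and neither got an ASO. The libraries were made with a kit that reads the 3' ends of transcripts, so that a count stands for a transcript and does not grow with its length.

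Sinusoidal endothelial cells form a porous capillary wall without an organised basement membrane, and clear waste from blood through scavenger receptors such as the stabilins. Around the central vein, endothelial cells also secrete Wnt2, Wnt9b and an R-spondin (Rspo3), which keep the pericentral gene programme of neighbouring hepatocytes on. They also make the bone morphogenetic protein Bmp2, which induces the iron hormone hepcidin. Stellate cells lie between endothelium and hepatocytes, wrap the sinusoid like pericytes, store vitamin A as retinyl esters and can turn into matrix-producing myofibroblasts after injury.

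Total counts were 6358080 to 20258619 in Smyd3-ASO mice, 6789715 to 13805881 in control-ASO mice, 4556484 to 6447397 in DEN day-133 mice and 10186780 to 13116012 in untreated mice. The targeted gene Smyd3 stood at 0 to 0.758 CPM (median 0.246) in Smyd3-ASO mice, against 3.11 to 4.64 CPM (median 3.95) in control-ASO mice, a log2 change of -3.65 ± 0.47 (adjusted p = 0.000148). Levels are in CPM, counts scaled to library size with TMM factors, which were 0.983 to 1.42 in the DEN groups and 0.567 to 0.784 in untreated mice. Scaling by library totals alone put the median gene at 0.04 (Smyd3-ASO over control ASO), 0.96 (Smyd3-ASO over untreated), 0.90 (control ASO over untreated), 0.59 (DEN day 133 over untreated) and 0.28 (control ASO over DEN day 133) on the log2 scale. With TMM it stood at 0.010, 0.060, 0.057, 0.002 and 0.030 in that order. Control-ASO mouse 1 carried skeletal muscle transcripts, with 5370 counts of Acta1 against at most 12 in any of the other 20 mice. Saa2, an acute-phase gene, reached 8752 CPM in the Smyd3-ASO group and 45918 CPM in untreated mouse 5. Dbp, a clock gene, was at 5.31 to 33.4 CPM (median 16.5) in Smyd3-ASO mice, at 9.48 and 11.6 CPM in control-ASO mice 1 and 2 and 93.6 to 107 CPM in the other 4, at 1.53 to 8.85 CPM (median 2.14) in DEN day-133 mice, and at 13.0 CPM in untreated mouse 5 and 92.1 to 119 CPM in the other 4. Groups thus differed in this gene, and its part in the results was not tested. In bulk liver, fewer cells of a type and less RNA per cell cannot be told apart. Several members are also made by other cells (Mrc1 by macrophages, Fcgr2b by lymphocytes, Dcn by portal fibroblasts, Des by muscle). The counting strand is not given in the sources used here. Reads of members that overlap a gene on the other strand, such as Eng (Fpgs), Egfl7 (Agpat2), Stab1 (Nt5dc2) and Gpr182 (Zbtb39), can therefore not be assigned with certainty.

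Promoters of 5 endothelial members are printed because their transcripts carry the comparisons that follow. Fcgr2b, Tie1, Eng and Mrc1 passed the test with TMM scaling in the same direction in all 3 comparisons of DEN mice with untreated mice, and Wnt2 passed it between the ASO groups. Each is the 250 bases before the RefSeq transcript start (build GRCm38.p6), with the letters GGAAG, the core that ETS-family factors of endothelial cells bind, or its reverse complement CTTCC, in capitals.
Fcgr2b (chr1:170976072-170976321, minus strand): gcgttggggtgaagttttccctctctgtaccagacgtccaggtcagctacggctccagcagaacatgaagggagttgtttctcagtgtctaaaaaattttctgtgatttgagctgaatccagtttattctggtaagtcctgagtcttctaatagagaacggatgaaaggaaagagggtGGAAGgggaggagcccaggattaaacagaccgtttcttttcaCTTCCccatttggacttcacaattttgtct
Tie1 (chr4:118489850-118490099, minus strand): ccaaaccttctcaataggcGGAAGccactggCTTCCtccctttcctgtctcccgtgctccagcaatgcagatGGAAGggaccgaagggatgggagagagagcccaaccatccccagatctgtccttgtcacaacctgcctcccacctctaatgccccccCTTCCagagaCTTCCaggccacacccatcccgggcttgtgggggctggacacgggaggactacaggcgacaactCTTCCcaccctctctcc
Eng (chr2:32646345-32646594, plus strand): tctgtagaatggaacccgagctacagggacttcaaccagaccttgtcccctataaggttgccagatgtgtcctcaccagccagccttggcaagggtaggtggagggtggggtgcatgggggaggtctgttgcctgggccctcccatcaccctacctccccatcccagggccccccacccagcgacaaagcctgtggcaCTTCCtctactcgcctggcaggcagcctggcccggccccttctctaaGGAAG
Mrc1 (chr2:14229164-14229413, plus strand): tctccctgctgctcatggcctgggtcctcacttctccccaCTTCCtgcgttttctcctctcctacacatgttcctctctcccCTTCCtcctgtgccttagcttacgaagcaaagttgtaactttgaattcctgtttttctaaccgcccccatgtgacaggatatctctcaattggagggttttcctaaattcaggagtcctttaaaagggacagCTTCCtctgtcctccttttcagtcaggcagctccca
Wnt2 (chr6:18030446-18030695, minus strand): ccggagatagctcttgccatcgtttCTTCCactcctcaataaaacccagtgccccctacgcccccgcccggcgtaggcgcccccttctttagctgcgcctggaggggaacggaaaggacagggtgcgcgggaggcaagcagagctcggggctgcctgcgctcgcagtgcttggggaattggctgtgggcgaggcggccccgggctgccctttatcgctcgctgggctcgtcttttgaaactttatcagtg
The core occurred 6 times in the Tie1 promoter, 3 times in that of Mrc1, 2 times in those of Fcgr2b and Eng, and 1 time in that of Wnt2. It was present in 14 of the 23 member promoters with a single RefSeq entry (60.9%) and in 64.1% of all 32851 promoters of the table, so the letters were as common elsewhere. The GATA motif AGATAA, or TTATCT on the other strand, was in 2 of the 23 and in 9.99% of all promoters, and in none of the 5 printed here. A match is a run of letters and says nothing of a factor's binding.

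Smyd3-ASO mice had less transcript of 5 sinusoidal endothelial genes than control-ASO mice, and more of the Wnt ligand gene Wnt2. Stab2, Fcgr2b, Oit3, Dnase1l3 and Pecam1 were lower by 0.39 to 0.98 on the log2 scale and Wnt2 was higher by 1.43. The other 16 endothelial members did not pass. The 6 of 22 tested members (27.3%) stood beside 26.1% of all genes (13.3% higher and 12.9% lower), so their number was near that of genes at large. Their median log2 change was -0.02, against 0.01 over all genes. All p-values given are from edgeR's quasi-likelihood test with Benjamini-Hochberg adjustment over the 15297 genes, and a change passed below 0.05. The ± after a log2 change is its standard error.

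**Figure D1:**
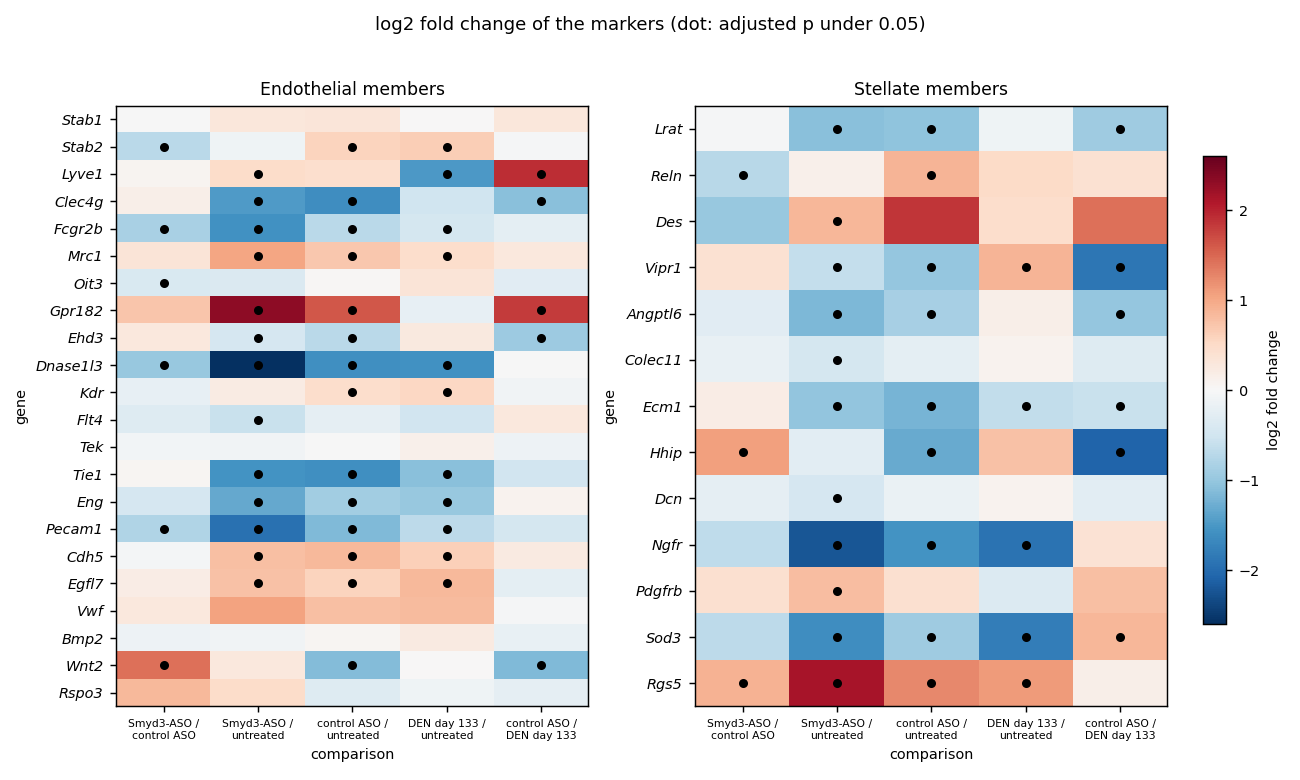
log2 fold change of the 22 tested endothelial members (left) and the 13 stellate members (right) in the 5 comparisons, as colour (red higher, blue lower in the group named first), with a dot where the adjusted p was below 0.05. Dnase1l3 is blue in all but the last comparison, Wnt2 is red only in the first of its 3 dotted cells, and Rgs5 is red with a dot in the first 4.

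Among the scavenger receptors, Stab2 (ENSMUSG00000035459, chr10:86841198-87008025, minus strand of mm10), which clears hyaluronan from blood, stood at 14 to 21.3 CPM (median 17.5) in Smyd3-ASO mice and 22.4 to 33.8 CPM (median 29.1) in control-ASO mice. No Smyd3-ASO mouse reached the lowest control-ASO mouse, and the log2 change was -0.70 ± 0.15 (adjusted p = 0.00377). Fcgr2b (ENSMUSG00000026656, chr1:170958617-170976547, minus strand), an inhibitory receptor through which the endothelium takes up immune complexes, stood at 9.39 to 15.2 CPM (median 11.2) in Smyd3-ASO mice and 17.5 to 27.2 CPM (median 18.9) in control-ASO mice. These ranges did not overlap either, with a log2 change of -0.85 ± 0.16 (adjusted p = 0.00189). The close relative of Stab2, Stab1, averaged 25.5 ± 4.16 CPM in Smyd3-ASO mice and 25.4 ± 4.71 CPM in control-ASO mice (SD, n = 6 each). Its log2 change was -0.0013 (adjusted p = 0.995). The hyaluronan receptor Lyve1 (0.07, adjusted p = 0.854), the lectin Clec4g (0.14, 0.561) and the mannose receptor Mrc1 (0.33, 0.0937) did not pass. Without Smyd3-ASO mouse 6, Mrc1 passed at 0.42 (adjusted p = 0.0181).

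Dnase1l3 (ENSMUSG00000025279, chr14:7964533-7994573, minus strand), a secreted nuclease that degrades DNA in blood, stood at 11.9 to 20.0 CPM (median 13.6) in Smyd3-ASO mice and 17.8 to 36.8 CPM (median 28.4) in control-ASO mice. The ranges overlapped only through Smyd3-ASO mouse 6 and control-ASO mouse 2. The log2 change of -0.98 ± 0.18 (adjusted p = 0.00153) was the largest fall among the members that passed. Oit3, a marker of sinusoidal endothelium, stood at 7.20 to 8.68 CPM (median 8.04) in Smyd3-ASO mice and 8.77 to 12.9 CPM (median 10.4) in control-ASO mice, a small but non-overlapping difference of -0.39 ± 0.13 (adjusted p = 0.0394). Its call was lost on leaving out any of Smyd3-ASO mice 2, 3, 4 and 6 or control-ASO mice 1, 3, 5 and 6, with log2 values of -0.39 to -0.32 and adjusted p up to 0.0938. Gpr182, a scavenging chemokine receptor of this endothelium, stood at 41.5, 29.6, 27.2, 24.4, 17.6 and 3.79 CPM in Smyd3-ASO mice, against 8.66 to 17.8 CPM (median 15.7) in control-ASO mice. Smyd3-ASO mouse 6 was far below its group. The log2 change was 0.72 ± 0.39 (adjusted p = 0.187) with all mice and 0.94 (adjusted p = 0.00686) without mouse 6. The endocytic gene Ehd3 did not pass (0.27 ± 0.19, adjusted p = 0.306).

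**Figure D2:**
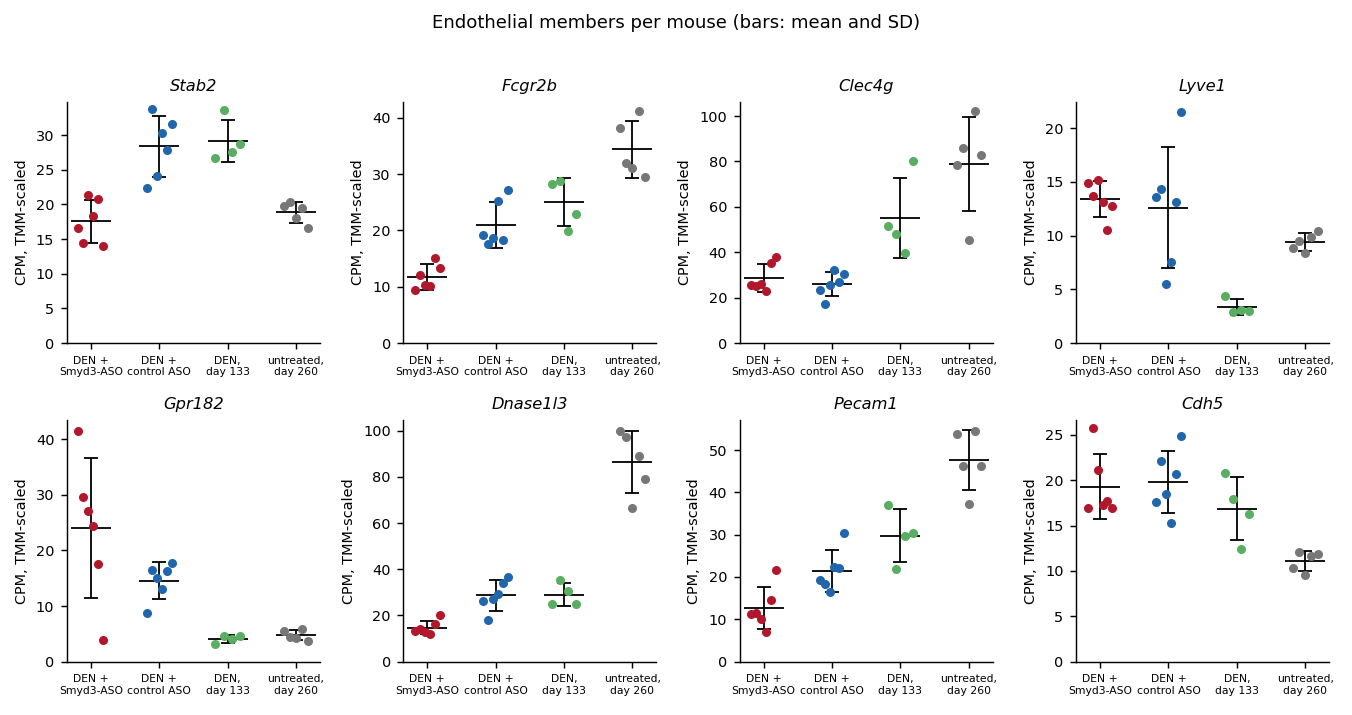
TMM-scaled CPM of 8 endothelial members in every mouse (points) of the 4 groups, with mean and SD as bars. Stab2 and Fcgr2b separate Smyd3-ASO from control-ASO mice without overlap, Lyve1 is lowest at DEN day 133 (2.88 to 4.42 CPM), and Pecam1 and Cdh5 stand in opposite order between DEN and untreated mice.

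Of the 9 growth-factor receptors, junction proteins and vessel-wall proteins, Pecam1 alone passed between the ASO groups. Pecam1 (ENSMUSG00000020717, chr11:106654217-106750628, minus strand), an adhesion protein of endothelial junctions, stood at 7.00 to 21.6 CPM (median 11.3) in Smyd3-ASO mice and 16.5 to 30.5 CPM (median 20.7) in control-ASO mice. Smyd3-ASO mouse 6 had the highest level of its group and lay among the control-ASO mice, while the other 5 Smyd3-ASO mice were below all of them. The log2 change was -0.79 ± 0.23 (adjusted p = 0.0232), and without control-ASO mouse 6 it was -0.66 (adjusted p = 0.0588). Cdh5, the cadherin of the same junctions, averaged 19.3 ± 3.57 CPM in Smyd3-ASO mice and 19.9 ± 3.42 CPM in control-ASO mice (SD, n = 6 each). Its log2 change was -0.05 ± 0.15 (adjusted p = 0.836). On the log2 scale, the VEGF receptor genes Kdr and Flt4 stood at -0.22 and -0.34, and the angiopoietin receptor genes Tek and Tie1 at -0.07 and 0.04. The TGF-beta co-receptor gene Eng was at -0.43, and the genes of the secreted proteins Egfl7 and Vwf were at 0.19 and 0.28. None of these 7 passed (adjusted p = 0.192 to 0.91).

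Wnt2 (ENSMUSG00000010797, chr6:17988940-18030585, minus strand), the Wnt ligand of sinusoidal and central-vein endothelium, stood at 3.19 to 8.47 CPM (median 5.54) in Smyd3-ASO mice and 0.637 to 3.16 CPM (median 2.13) in control-ASO mice. The lowest Smyd3-ASO mouse was barely above the highest control-ASO mouse. These levels rest on 57 to 218 counts in Smyd3-ASO mice and 9 to 39 counts in control-ASO mice. The log2 change was 1.43 ± 0.35 (adjusted p = 0.00849). Untreated mice had 3.55, 5.22, 4.05, 4.94 and 4.95 CPM, within the range of the Smyd3-ASO mice and above every control-ASO mouse on this TMM scale. By library totals alone, untreated mice overlapped with control-ASO mice and lay below the Smyd3-ASO range. Rspo3, the R-spondin that strengthens Wnt signals, stood at 2.75 to 4.68 CPM (median 3.00) in Smyd3-ASO mice and 0.421 to 2.90 CPM (median 2.03) in control-ASO mice and did not pass (0.84 ± 0.35, adjusted p = 0.0863). Only control-ASO mouse 3 reached the Smyd3-ASO range. Bmp2 averaged 19.2 ± 1.77 CPM in Smyd3-ASO mice and 20.8 ± 3.45 CPM in control-ASO mice (SD, n = 6 each). Its log2 change was -0.12 ± 0.13 (adjusted p = 0.494).

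Among 18 listed Wnt targets and pericentral genes of hepatocytes, 6 rose and 1 fell in Smyd3-ASO mice relative to control-ASO mice (38.9%, beside 26.1% of all genes), with a median log2 change of 1.01 against 0.01 over all genes. Cyp27a1, a sterol hydroxylase, was at 185 to 247 CPM (median 201) in Smyd3-ASO mice and 40.3 to 75 CPM (median 53.2) in control-ASO mice (1.92 ± 0.16, adjusted p = 7.99e-06). Oat, an ornithine-metabolising enzyme, was at 127 to 332 CPM (median 243) in Smyd3-ASO mice and 36.4 to 172 CPM (median 60.7) in control-ASO mice (1.62 ± 0.39, adjusted p = 0.00951). Cyp2e1, an ethanol-metabolising cytochrome, rose by 1.22 (adjusted p = 0.0154). The gene that fell was Tcf7 (-1.04 ± 0.28, adjusted p = 0.0138), a transcription factor of the Wnt pathway. Of 10 listed targets of bone morphogenetic proteins, 2 rose and 1 fell (30.0%, near the 26.1% of all genes). Hamp, which encodes hepcidin, rose by 1.84 (adjusted p = 0.0339) and Id3 by 0.60 (0.0395), while the inhibitor Smad6 fell (-1.50 ± 0.24, adjusted p = 0.000636). The call of Hamp was lost without Smyd3-ASO mouse 2, 3 or 4 or control-ASO mouse 2, 4 or 5 (1.63 to 1.86), and that of Id3 without Smyd3-ASO mouse 1 or 3 or any control-ASO mouse but mouse 3 (0.42 to 0.63). Gdf2, a circulating ligand of the Eng receptor complex made by stellate cells, rose (1.12 ± 0.15, adjusted p = 0.000219).

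**Figure D3:**
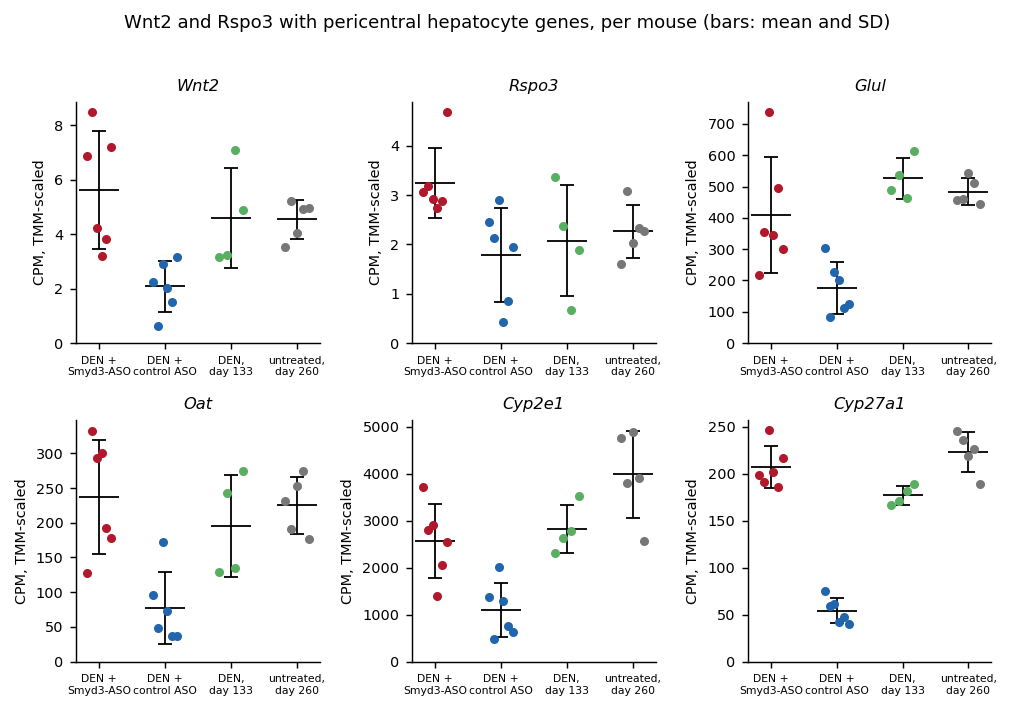
TMM-scaled CPM of Wnt2, Rspo3 and 4 pericentral hepatocyte genes in every mouse (points) of the 4 groups, with mean and SD as bars. Control-ASO mice are the lowest group for Wnt2 (mean 2.08 CPM) and for Cyp27a1 (mean 54.2 CPM), and Smyd3-ASO mice stand near untreated mice for Wnt2 (means 5.63 and 4.54 CPM).

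Among the stellate members, Hhip and Rgs5 were higher and Reln was lower in Smyd3-ASO than in control-ASO mice, 3 of 13 (23.1%) beside 26.1% of all genes. The median log2 change of the 13 was -0.19, against 0.01 over all genes. Hhip (ENSMUSG00000064325, chr8:79965851-80058006, minus strand), which binds and restrains hedgehog ligands, stood at 2.47, 3.30, 3.14, 2.26, 2.81 and 1.26 CPM in Smyd3-ASO mice, against 0.644 to 1.57 CPM (median 1.32) in control-ASO mice. All Smyd3-ASO mice but mouse 6 were above all control-ASO mice, and the log2 change was 1.06 ± 0.27 (adjusted p = 0.0107). Counts were low, 10 to 85 in Smyd3-ASO mice and 6 to 23 in control-ASO mice. Reln (ENSMUSG00000042453, chr5:21884454-22344702, minus strand), which encodes the secreted glycoprotein reelin, stood at 12.3 to 25.8 CPM (median 17.6) in Smyd3-ASO mice and 23.9 to 34.7 CPM (median 31.2) in control-ASO mice. The ranges overlapped at their edges, and the log2 change was -0.73 ± 0.19 (adjusted p = 0.0138).

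Rgs5 (ENSMUSG00000026678, chr1:169655501-169695813, plus strand), a brake on G-protein signalling that marks pericytes, stood at 34.5 to 80.0 CPM (median 53.7) in Smyd3-ASO mice and 16.2 to 60.0 CPM (median 25) in control-ASO mice. Control-ASO mouse 2, at 60.0 CPM, lay within the Smyd3-ASO range, and the other 5 control-ASO mice were below all Smyd3-ASO mice. The log2 change of 0.91 ± 0.30 (adjusted p = 0.0414) lost its call on leaving out any of Smyd3-ASO mice 1, 2 and 4 or control-ASO mice 1, 3, 4, 5 and 6 (0.78 to 0.92, adjusted p up to 0.0879). Desmin (Des), a filament protein of stellate cells and of muscle, did not pass (-0.98 ± 0.68, adjusted p = 0.309). It stood at 2.22 to 3.79 CPM (median 2.63) in Smyd3-ASO mice and at 22.6 CPM in control-ASO mouse 1, the mouse with muscle transcripts, against 1.38 to 2.55 CPM in the other 5 control-ASO mice. Without that mouse the direction turned, to 0.58 (adjusted p = 0.0828).

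The other 9 stellate members did not pass between the ASO groups. Lrat, which esterifies vitamin A, averaged 5.90 ± 2.88 CPM in Smyd3-ASO mice and 5.94 ± 1.89 CPM in control-ASO mice (SD, n = 6 each), a log2 change of -0.02 ± 0.32 (adjusted p = 0.968). The proteoglycan gene Dcn averaged 83.5 ± 9.68 CPM in Smyd3-ASO mice and 98.1 ± 11.3 CPM in control-ASO mice, a log2 change of -0.24 ± 0.12 (adjusted p = 0.15). Sod3, the extracellular superoxide dismutase, was at -0.68 (adjusted p = 0.0626), and passed without Smyd3-ASO mouse 2 (-0.86), control-ASO mouse 1 (-0.80) or control-ASO mouse 3 (-0.77). The VIP receptor gene Vipr1 was at 0.40, the PDGF receptor gene Pdgfrb at 0.41, and Ngfr at -0.66. Angptl6, Colec11 and Ecm1 were at -0.30, -0.19 and 0.20 on the log2 scale.

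**Figure D4:**
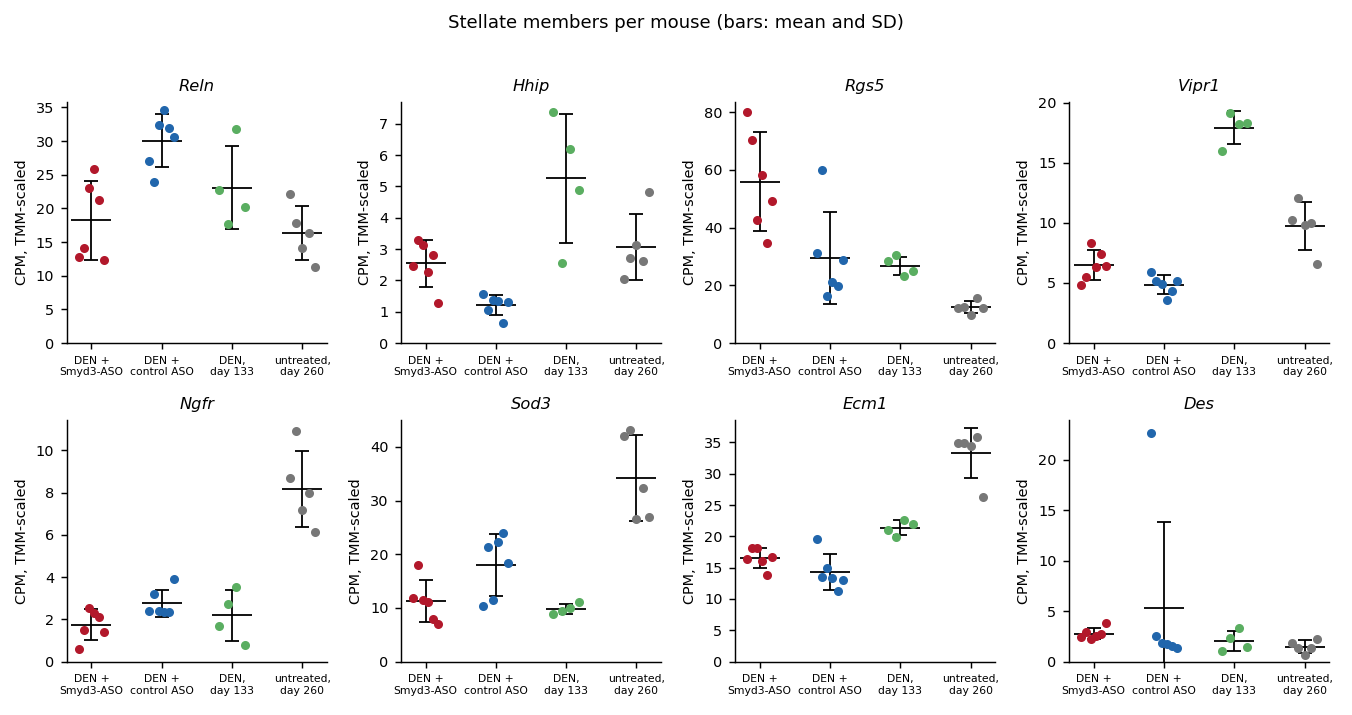
TMM-scaled CPM of 8 stellate members in every mouse (points) of the 4 groups, with mean and SD as bars (the SD bar of Des in control-ASO mice is cut at 0). Ngfr, Sod3 and Ecm1 are highest in all untreated mice, Vipr1 is highest at DEN day 133 (16 to 19.2 CPM), and Des stands out in a single control-ASO mouse.

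Other listed genes of these cells moved in both directions between the ASO groups. Of 19 tested further endothelial genes, 3 were higher, among them Rasip1 (0.86) and Robo4 (0.64). Another 5 were lower (42.1% passed, beside 26.1% of all genes), among them the phosphatase gene Ptprb (-0.95 ± 0.16, adjusted p = 0.000897) and the adhesion gene Esam (-0.86). Of 14 genes of ordinary capillaries and large vessels, Ly6a (0.94) and Cd34 (0.84) were higher and Esm1, a product of sprouting endothelium, was lower (-2.12 ± 0.41, adjusted p = 0.00246). Those 3 were 21.4% of the list, beside 26.1% of all genes. Of 15 genes of vessel growth factors and their receptors, 3 were lower and 1, Gdf2, was higher (26.7%, near the 26.1% of all genes). Vegfa (-0.69 ± 0.19, adjusted p = 0.014) and Vegfc (-1.23) were among the lower ones. Of 20 genes of stellate activation and matrix, Timp2 alone, 5% of the list, passed (-0.80 ± 0.13, adjusted p = 0.000952). Of 19 further genes listed as stellate, 4 rose and 1 fell (26.3%, near the 26.1% of all genes). The transcription factor genes Hand2 (0.97) and Lhx2 (0.97) were among those that rose. Hgfac fell (-1.75), and whether stellate cells were its source was not tested. The call of Lhx2 was lost without Smyd3-ASO mouse 2 (0.78, adjusted p = 0.0547). Of 13 vitamin A genes, 2 were higher and 3 were lower (38.5%, beside 26.1% of all genes), among them Rarg by -1.70 and Rdh5 by -1.04.

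Markers of other cells were also compared between the ASO groups. Of 14 Kupffer cell and macrophage genes 3 were higher in Smyd3-ASO mice and none was lower (21.4%, beside 26.1% of all genes). C1qa was at 1.82 on the log2 scale. Folr2 was at 1.77, and at 2.46 without control-ASO mouse 3. Marco was at 3.49, and at 1.79 without Smyd3-ASO mouse 4, which held 119 CPM against 3.54 to 15.0 CPM in the other 5. The call of Marco was lost without control-ASO mouse 1 (3.33). The Kupffer cell gene Clec4f was at 5.72 to 17 CPM in Smyd3-ASO mice and 11.7 to 22.6 CPM in control-ASO mice and did not pass. Their summed level was 324 to 637 CPM in Smyd3-ASO mice and 204 to 446 CPM in control-ASO mice. Of 10 hepatocyte genes, 6 were lower and none higher (60.0%), with sums of 25665 to 54816 CPM in Smyd3-ASO mice and 70293 to 107780 CPM in control-ASO mice. The summed level of the 23 endothelial members was 380 to 462 CPM in Smyd3-ASO mice and 378 to 506 CPM in control-ASO mice, and that of the 13 stellate members was 212 to 263 CPM in Smyd3-ASO mice and 209 to 296 CPM in control-ASO mice. The part of cell composition in any member's change was not tested.

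Every DEN group differed from untreated liver in many of these genes, and the endothelial members split in direction. Higher in all 3 DEN groups were Mrc1, Cdh5 and Egfl7, and lower in all 3 were Fcgr2b, Dnase1l3, Tie1, Eng and Pecam1, 8 of 22 members (36.4%), although Fcgr2b turned positive by library totals in control-ASO mice and at day 133. Tie1, Eng and Pecam1 kept negative values by library totals, but not all of their calls. Of the 9 receptor, junction and vessel-wall genes, which include them, library totals called 2 lower in Smyd3-ASO mice, 1 in control-ASO mice and none at day 133. Of the stellate members, Rgs5 was higher and Ecm1, Ngfr and Sod3 were lower in all 3, 4 of 13 (30.8%). By library totals Ecm1, Ngfr and Sod3 kept negative values, but only 2 stellate members were called lower in each comparison with untreated mice. Of all tested genes, 16.5% passed in the same direction in all 3 (6.63% higher, 9.86% lower). The 3 comparisons use the same 5 untreated mice, so their directions are not independent of each other. In Smyd3-ASO mice 13 of 22 endothelial members passed (59.1%; 5 higher, 8 lower) and 11 of 13 stellate members (84.6%; 3 higher, 8 lower), beside 47.6% of all genes (24.4% higher, 23.2% lower). In control-ASO mice 14 endothelial (63.6%; 6 higher, 8 lower) and 9 stellate members (69.2%; 2 higher, 7 lower) passed, beside 45.9% of all genes (23.7% higher, 22.2% lower). In DEN day-133 mice 11 endothelial (50.0%; 5 higher, 6 lower) and 5 stellate members (38.5%; 2 higher, 3 lower) passed, beside 31.6% of all genes (15.1% higher, 16.6% lower).

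These directions are relative to the bulk of genes. With library totals in place of TMM, the endothelial members called against untreated mice were 13 higher and 5 lower in Smyd3-ASO mice, 13 higher and 3 lower in control-ASO mice, and 10 higher and 2 lower at day 133. The stellate members were 5 higher and 2 lower in each ASO group and 7 higher and 2 lower at day 133. All members that had passed in the 5 comparisons stayed on the same side of the median gene. Rescaling moves nearly all genes by a like amount, so that outcome was almost fixed and is no check of direction. Against untreated mice, 9522 genes were called higher and 893 lower in Smyd3-ASO mice by library totals (3734 and 3554 with TMM), 10036 genes were called higher and 687 lower in control-ASO mice by library totals (3620 and 3398 with TMM), and 6471 higher and 821 lower in DEN day-133 mice (2306 and 2533). Between control-ASO and DEN day-133 mice the split was 3855 higher and 985 lower (2200 and 1931 with TMM). The median gene itself stood above 0, and 8 of the calls of lower level against untreated mice had a positive log2 value. Those were Fcgr2b at DEN day 133 (0.12) and in control-ASO mice (0.14), Ehd3 in control-ASO (0.15) and Smyd3-ASO mice (0.44), and Flt4 (0.31), Vipr1 (0.26), Colec11 (0.42) and Dcn (0.48) in Smyd3-ASO mice.

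Dnase1l3 was lower in each DEN group than in untreated mice. It was at 11.9 to 20.0 CPM (median 13.6) in Smyd3-ASO mice, 17.8 to 36.8 CPM (median 28.4) in control-ASO mice, 25, 35.5, 30.6 and 24.8 CPM in DEN day-133 mice and 99.8, 97.3, 66.7, 89.3 and 79.3 CPM in untreated mice. On the TMM scale no DEN mouse came near an untreated mouse, while by library totals alone control-ASO mice overlapped with untreated mice. Against untreated mice the log2 change was -2.58 ± 0.17 (adjusted p = 2.19e-07) in Smyd3-ASO mice, -1.60 ± 0.17 (adjusted p = 5.64e-06) in control-ASO mice and -1.57 ± 0.16 (adjusted p = 5.18e-06) at day 133. Pecam1 was at 37, 21.9, 29.7 and 30.5 CPM in DEN day-133 mice and 53.8, 46.2, 37.3, 54.6 and 46.3 CPM in untreated mice. Against untreated mice its log2 change was -1.95 ± 0.24 (adjusted p = 2.55e-05) in Smyd3-ASO mice, -1.14 ± 0.16 (adjusted p = 4.72e-05) in control-ASO mice and -0.67 ± 0.16 (adjusted p = 0.00545) at day 133. Cdh5 went the other way. It was at 16.9 to 25.8 CPM (median 17.5) in Smyd3-ASO mice, 15.3 to 24.8 CPM (median 19.6) in control-ASO mice and 20.8, 18, 12.4 and 16.3 CPM in DEN day-133 mice, all above the 10.3, 12.1, 9.51, 11.6 and 11.9 CPM of the untreated mice. The log2 change was 0.78 ± 0.15 (adjusted p = 0.000961) in Smyd3-ASO mice, 0.84 ± 0.14 (adjusted p = 0.000252) in control-ASO mice and 0.61 ± 0.17 (adjusted p = 0.0127) at day 133. The call at day 133 was lost without DEN day-133 mouse 1 (0.50, adjusted p = 0.0519).

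Fcgr2b was at 28.2, 28.8, 20.0 and 22.9 CPM in DEN day-133 mice and 38.1, 32, 31, 41.2 and 29.4 CPM in untreated mice. Its log2 change against them was -1.58 ± 0.16 (adjusted p = 6.76e-06) in Smyd3-ASO mice, -0.71 ± 0.14 (adjusted p = 0.00116) in control-ASO mice and -0.46 ± 0.15 (adjusted p = 0.0325) at day 133, with positive values by library totals in control-ASO mice (0.14) and at day 133 (0.12). With TMM, the call at day 133 was lost without untreated mouse 1 or 4 or DEN day-133 mouse 3 or 4 (-0.42 to -0.37). The co-receptor gene Eng was at 2.65 to 4.31 CPM (median 3.54) in Smyd3-ASO mice, 2.86 to 6.66 CPM (median 4.73) in control-ASO mice, 3.79, 5.09, 4.66 and 3.79 CPM in DEN day-133 mice and 7.52, 11.7, 7.01, 9.29 and 7.36 CPM in untreated mice. No DEN mouse was in the untreated range on this TMM scale, but scaled by library totals alone, control-ASO and untreated mice overlapped in Eng. On the log2 scale with TMM, Eng was at -1.34 in Smyd3-ASO mice, -0.90 in control-ASO mice and -0.98 at day 133. Tie1 was at 3.32 to 6.06 CPM (median 4.03) in Smyd3-ASO mice, 2.83 to 6.23 CPM (median 3.63) in control-ASO mice, 6.31, 5.09, 7.76 and 5.21 CPM in DEN day-133 mice and 18.7, 13.2, 9.82, 14.7 and 7.89 CPM in untreated mice. Its log2 change was -1.56 in Smyd3-ASO mice, -1.59 in control-ASO mice and -1.09 at day 133. Again no DEN mouse reached the lowest untreated mouse on the TMM scale, while by library totals alone DEN day-133 and control-ASO mice overlapped with untreated mice. Mrc1 was at 31.2 to 52.5 CPM (median 46.2) in Smyd3-ASO mice, 29.3 to 42.9 CPM (median 35.8) in control-ASO mice, 34.5, 27.1, 29.1 and 28.9 CPM in DEN day-133 mice and 25, 19.9, 21.5, 21.6 and 21.7 CPM in untreated mice. Its log2 change was 1.02 in Smyd3-ASO mice, 0.71 in control-ASO mice and 0.45 at day 133 (adjusted p = 0.0158), the last lost without DEN day-133 mouse 1 (0.37, adjusted p = 0.0597). Egfl7, a secreted protein of growing vessels, was higher by 0.75 in Smyd3-ASO mice, 0.58 in control-ASO mice and 0.85 at day 133.

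Clec4g and Gpr182 passed against untreated mice in both ASO groups and not at day 133, although Clec4g passed there without DEN day-133 mouse 4 (-0.76, adjusted p = 0.0209) or untreated mouse 3 (-0.66, adjusted p = 0.018) and with a replicate block (adjusted p = 0.0236). Clec4g, the lectin of sinusoidal endothelium, was at 22.8 to 37.9 CPM (median 25.8) in Smyd3-ASO mice and 17 to 32.1 CPM (median 26.2) in control-ASO mice, 51.8, 48.2, 39.5 and 80.3 CPM in DEN day-133 mice and 78.5, 86.1, 45.2, 102 and 82.9 CPM in untreated mice. Both ASO groups were below every untreated mouse on the TMM scale, but overlapped with untreated mice by library totals alone. The log2 change against untreated mice was -1.48 ± 0.20 (adjusted p = 6.75e-05) in Smyd3-ASO and -1.61 ± 0.20 (adjusted p = 1.75e-05) in control-ASO mice, and that of control-ASO over DEN day-133 mice was -1.09 ± 0.20 (adjusted p = 0.00156). Gpr182, at 8.66 to 17.8 CPM (median 15.7) in control-ASO mice, was at 3.16, 4.58, 3.99 and 4.58 CPM in DEN day-133 mice and 5.59, 4.50, 4.21, 5.81 and 3.61 CPM in untreated mice. It was higher in Smyd3-ASO than in untreated mice (2.32 ± 0.45, adjusted p = 0.00137). In control-ASO mice it was higher than in untreated mice (1.61 ± 0.20, adjusted p = 1.95e-05) and than in DEN day-133 mice (1.82 ± 0.22, adjusted p = 7.49e-05). The trafficking gene Ehd3 was at 15.1 to 31.1 CPM (median 26.5) in control-ASO mice and 48.8, 44.6, 48.6 and 44.4 CPM in DEN day-133 mice, without overlap, a log2 change of -0.95 ± 0.19 (adjusted p = 0.00197).

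Lyve1 was lower at day 133 than in untreated mice. It was at 4.42, 2.88, 3.11 and 3.00 CPM in DEN day-133 mice and 8.81, 9.48, 8.42, 9.87 and 10.4 CPM in untreated mice, a log2 change of -1.49 ± 0.21 (adjusted p = 8.02e-05). Control-ASO mice, at 5.54 to 21.5 CPM (median 13.3), were higher than DEN day-133 mice by 1.92 ± 0.36 (adjusted p = 0.00212). Stab2 was at 26.7, 33.6, 27.5 and 28.8 CPM in DEN day-133 mice and 19.8, 20.4, 18.1, 19.4 and 16.6 CPM in untreated mice, a log2 change of 0.63 ± 0.13 (adjusted p = 0.0019). It was also higher in control-ASO than in untreated mice (0.59 ± 0.13, adjusted p = 0.00161), and did not pass in Smyd3-ASO mice (-0.12, adjusted p = 0.521). Kdr, the main VEGF receptor gene of these cells, was higher in control-ASO mice (0.45 ± 0.13, adjusted p = 0.0117) and at day 133 (0.54 ± 0.15, adjusted p = 0.0132, lost without DEN day-133 mouse 1 at 0.47) than in untreated mice. It did not pass in Smyd3-ASO mice (0.22, adjusted p = 0.261). Wnt2 was lower in control-ASO mice than in untreated mice (-1.13 ± 0.31, adjusted p = 0.00882) and than in DEN day-133 mice (-1.14 ± 0.38, adjusted p = 0.0383). The call against DEN day-133 mice was lost without control-ASO mouse 4 or 5 or DEN day-133 mouse 3 or 4 (-1.14 to -0.87, adjusted p up to 0.144). By library totals Wnt2 was not called lower in either comparison. Of the 18 Wnt targets and pericentral genes, 12 were lower and none higher in control-ASO mice than in untreated mice, 6 lower and 1 higher in Smyd3-ASO mice, and 5 lower and 1 higher at day 133. Those are 66.7%, 38.9% and 33.3% of the list in that order, beside 45.9%, 47.6% and 31.6% of all genes. By library totals the calls were 7 lower and 2 higher in control-ASO mice, 2 lower and 6 higher in Smyd3-ASO mice and none lower and 2 higher at day 133.

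Between control-ASO and DEN day-133 mice, which differ in age and in the ASO, 5 of 22 endothelial members (22.7%; 2 higher, 3 lower) and 6 of 13 stellate members (46.2%; 1 higher, 5 lower) passed, beside 27% of all genes (14.4% higher, 12.6% lower). The stellate genes that were lower were Hhip, Vipr1, Angptl6, Lrat and Ecm1, and Sod3 was higher. By library totals the stellate calls were 3 higher and 3 lower, and the endothelial calls 4 higher and 2 lower. Vipr1, a receptor for vasoactive intestinal peptide, was at 3.62 to 5.93 CPM (median 5.04) in control-ASO mice and 16, 19.2, 18.2 and 18.3 CPM in DEN day-133 mice (-1.88 ± 0.16, adjusted p = 3.85e-06). Untreated mice, at 10.2, 12.1, 9.82, 10.0 and 6.55 CPM, lay between them on the TMM scale. Against untreated mice the gene was lower in control-ASO mice (-1.0 ± 0.18, adjusted p = 0.000363) and higher at day 133 (0.88 ± 0.18, adjusted p = 0.00149). By library totals, 2 stellate members were called lower in control-ASO than in untreated mice, against 7 with TMM. The falls of Vipr1, Hhip, Angptl6 and Lrat against untreated mice given here are those with TMM. Hhip was at 0.644 to 1.57 CPM (median 1.32) in control-ASO mice, below all DEN day-133 mice (7.37, 2.54, 6.21 and 4.90 CPM) and all untreated mice (2.04, 2.73, 3.12, 2.61 and 4.81 CPM). By library totals alone, control-ASO and untreated mice overlapped in Hhip. The log2 change in control-ASO mice was -2.08 ± 0.32 (adjusted p = 0.000436) against DEN day-133 mice and -1.31 ± 0.29 (adjusted p = 0.00202) against untreated mice. Angptl6, a secreted angiopoietin-like factor, was at 6.72 to 10.6 CPM (median 9.01) in control-ASO mice, against 14.7, 16.8, 19.1 and 20.2 CPM in DEN day-133 mice and 20.0, 17.3, 12.9, 17.9 and 11.5 CPM in untreated mice. The log2 change in control-ASO mice was -1.01 against DEN day-133 mice and -0.86 against untreated mice. Lrat was at 3.07 to 8.42 CPM (median 5.88) in control-ASO mice, against 11.4, 8.82, 9.98 and 15.2 CPM in DEN day-133 mice and 14.9, 14.6, 10.3, 12.5 and 8.96 CPM in untreated mice. Its log2 changes were -0.93 ± 0.25 (adjusted p = 0.013) against DEN day-133 mice, lost without DEN day-133 mouse 4 (-0.75, adjusted p = 0.0647), and -1.04 ± 0.23 (adjusted p = 0.00184) against untreated mice.

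Ngfr, the low-affinity neurotrophin receptor gene, was at 0.602 to 2.54 CPM (median 1.82) in Smyd3-ASO mice, 2.36 to 3.89 CPM (median 2.39) in control-ASO mice, 1.68, 2.71, 3.55 and 0.790 CPM in DEN day-133 mice and 8.70, 10.9, 7.17, 7.98 and 6.15 CPM in untreated mice. Against untreated mice the log2 change was -2.23 ± 0.30 (adjusted p = 6.2e-05) in Smyd3-ASO mice, -1.56 ± 0.20 (adjusted p = 2.77e-05) in control-ASO mice and -1.93 ± 0.33 (adjusted p = 0.000501) at day 133. Sod3 was at 6.95 to 18 CPM (median 11.3) in Smyd3-ASO mice, 10.3 to 23.9 CPM (median 19.9) in control-ASO mice, 8.84, 9.33, 9.98 and 11.1 CPM in DEN day-133 mice and 42, 43.1, 26.5, 32.4 and 26.9 CPM in untreated mice. Its log2 change was -1.62 in Smyd3-ASO mice, -0.93 in control-ASO mice and -1.80 at day 133. No DEN mouse reached the untreated range of either gene on the TMM scale. By library totals alone, control-ASO mice overlapped with untreated mice in both genes. Ecm1, a secreted matrix protein gene, was at 13.8 to 18.2 CPM (median 16.6) in Smyd3-ASO mice, 11.3 to 19.6 CPM (median 13.4) in control-ASO mice, 21, 19.8, 22.6 and 22 CPM in DEN day-133 mice and 34.9, 35, 34.5, 35.9 and 26.3 CPM in untreated mice. The log2 change of Ecm1 was -1.03 in Smyd3-ASO mice, -1.22 in control-ASO mice and -0.64 at day 133. Rgs5 was at 28.4, 30.4, 23.3 and 24.8 CPM in DEN day-133 mice and 12.1, 12.6, 9.66, 15.7 and 12 CPM in untreated mice. All 16 DEN mice were above all untreated mice, and the log2 change was 2.14 ± 0.22 (adjusted p = 7.21e-06) in Smyd3-ASO mice, 1.25 ± 0.31 (adjusted p = 0.0059) in control-ASO mice and 1.11 ± 0.16 (adjusted p = 9.31e-05) at day 133. Reln was higher in control-ASO mice than in untreated mice (0.87 ± 0.16, adjusted p = 0.000526), which had 22.1, 17.8, 14.2, 16.4 and 11.2 CPM, and did not pass in Smyd3-ASO mice (0.13, adjusted p = 0.66) or at day 133 (0.49, 0.081), where it passed without untreated mouse 1 (0.62, adjusted p = 0.0359).

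Further members passed between Smyd3-ASO and untreated mice. Lyve1 was at 10.6 to 15.2 CPM (median 13.4) in Smyd3-ASO mice, a log2 change of 0.48 ± 0.14 (adjusted p = 0.0112) against untreated mice. Pdgfrb, the PDGF receptor gene of pericytes, was at 3.41 to 6.14 CPM (median 4.70) in Smyd3-ASO mice and 4.08, 2.61, 1.87, 2.61 and 2.01 CPM in untreated mice, a log2 change of 0.81 ± 0.27 (adjusted p = 0.0222). Its call was lost without untreated mouse 3 or 5 (0.72 and 0.73). Des was also higher (0.86 ± 0.29, adjusted p = 0.0263), a call lost without untreated mouse 2, 3 or 4 (0.69 to 0.83). Lrat (-1.08 ± 0.31, adjusted p = 0.0109) and Angptl6 (-1.18 ± 0.17, adjusted p = 0.000111) were lower in Smyd3-ASO than in untreated mice, with negative values also by library totals. Only 2 stellate members were called lower there by library totals, against 8 with TMM. Ehd3, Flt4, Vipr1, Colec11 and Dcn were lower with TMM and had positive values by library totals. With TMM they stood at -0.44 (adjusted p = 0.0379), -0.58 (0.0215), -0.61 (0.0174), -0.46 (0.0403) and -0.43 (0.0135). The call of Ehd3 was lost without untreated mouse 1, 2 or 4 or Smyd3-ASO mouse 2, 3 or 6 (-0.43 to -0.37). That of Flt4 was lost without untreated mouse 1 or 4 (-0.53 and -0.52), and that of Vipr1 without untreated mouse 2 (-0.52). Colec11, a collectin gene, lost its call on leaving out any of untreated mice 1, 2 and 4 or Smyd3-ASO mice 1, 2, 3, 5 and 6 (-0.48 to -0.33). In control-ASO mice Ehd3 was lower than in untreated mice with TMM (-0.70 ± 0.19, adjusted p = 0.00812) and positive by library totals (0.15). Stab1, Oit3, Tek, Bmp2, Rspo3 and Vwf did not pass against untreated mice in any DEN group with TMM and all mice. By library totals Bmp2 and Rspo3 were called higher in Smyd3-ASO mice. Oit3 passed in Smyd3-ASO mice with TMM without untreated mouse 3 (-0.45, adjusted p = 0.0365). Vwf passed in Smyd3-ASO mice without Smyd3-ASO mouse 4 (1.18, adjusted p = 0.0402) or untreated mouse 5 (1.34, adjusted p = 0.0322).

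Of 20 tested genes of stellate activation and matrix, 2 were higher and 7 lower in Smyd3-ASO mice, 2 higher and 5 lower in control-ASO mice, and none higher and 9 lower at day 133, each against untreated mice. Those are 45.0%, 35.0% and 45.0% of the list in that order, beside 47.6%, 45.9% and 31.6% of all genes. By library totals the calls were 7 higher and 1 lower in Smyd3-ASO mice, 8 higher and 1 lower in control-ASO mice and 2 higher and 5 lower at day 133. Thbs1, the thrombospondin gene, rose in control-ASO mice (3.59 ± 0.41, adjusted p = 1.01e-05), while the collagen gene Col3a1 (-1.78), the protease gene Mmp2 (-1.55) and the proteoglycan gene Lum (-1.24) were lower there. At day 133 Col3a1 was at -2.75, Mmp2 at -2.29 and Sparc at -1.28. Genes of ordinary capillaries and large vessels moved both ways in control-ASO mice, 6 of 14 higher and 5 lower than in untreated mice, but 8 higher and none lower by library totals. The calls with TMM were 78.6% of the list, beside 45.9% of all genes. Esm1 was at 4.53 to 18.7 CPM (median 10.3) in control-ASO mice and 0 to 0.237 CPM (median 0.145) in untreated mice. Vcam1 was higher by 1.42, while the basement membrane collagen genes Col4a2 (-1.40) and Col15a1 (-1.33) were lower. Among the further endothelial genes, 8 of 19 were higher and 1 was lower in control-ASO than in untreated mice (47.4%, near the 45.9% of all genes). Clec14a (1.14), Cldn5 (1.70) and Sox17 (1.46) were among the higher ones. By library totals 17 were higher and 1 was lower. The gene that was lower was Gata4 (-1.46 ± 0.21, adjusted p = 6.01e-05), a transcription factor of the sinusoidal endothelial programme.

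Ratios of the counts of 2 members within a mouse do not depend on scaling. The pairs were picked after their values had been seen, so they are a description without a test. Counts of Pecam1 per count of Cdh5 were 0.405 to 1.28 (median 0.568) in Smyd3-ASO mice, 0.824 to 1.47 (median 1.08) in control-ASO mice, 1.22 to 2.39 (median 1.83) in DEN day-133 mice and 3.82 to 5.22 (median 3.92) in untreated mice. The untreated mice stood clear of every DEN mouse. Dnase1l3 per Kdr was 0.176 to 0.342 in Smyd3-ASO mice, 0.273 to 0.504 in control-ASO mice, 0.294 to 0.595 in DEN day-133 mice and 1.52 to 2.07 in untreated mice. Clec4g per Stab2 was 1.22 to 2.70 in Smyd3-ASO mice and 0.504 to 1.06 in control-ASO mice, which did not overlap, with 1.43 to 2.79 in DEN day-133 mice and 2.5 to 5.25 in untreated mice. Among stellate members, Rgs5 per Dcn was 0.402 to 1.09 in Smyd3-ASO mice, 0.155 to 0.531 in control-ASO mice, 0.208 to 0.256 in DEN day-133 mice and 0.0836 to 0.129 in untreated mice, with every untreated mouse below every DEN mouse.

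**Figure D5:**
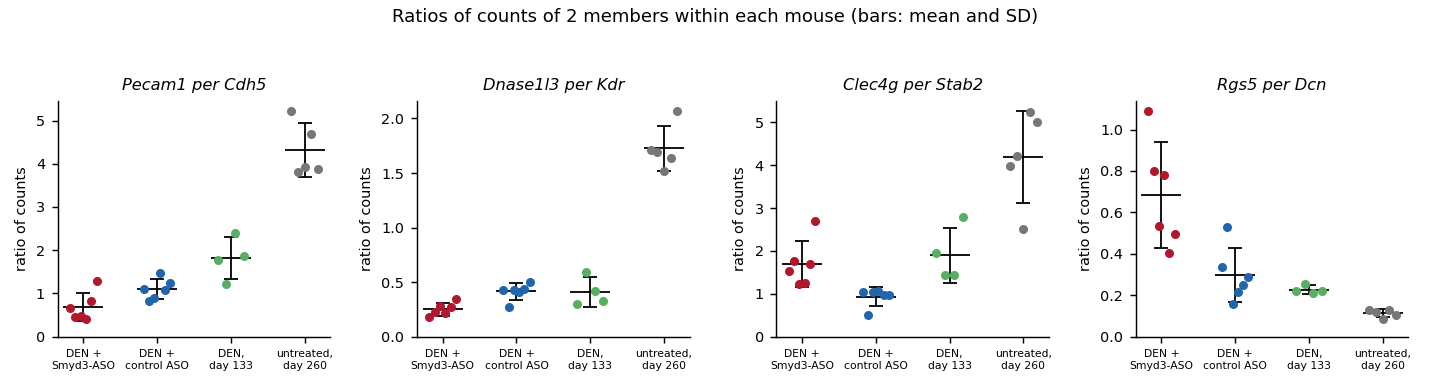
Ratio of the counts of 2 members in every mouse (points) of the 4 groups, with mean and SD as bars. Pecam1 per Cdh5 and Dnase1l3 per Kdr are highest in untreated mice (3.82 to 5.22 and 1.52 to 2.07), and Rgs5 per Dcn is lowest there (0.0836 to 0.129).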

How the data were processed

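Liver RNA of 21 mice (35 libraries) was profiled by 3' mRNA sequencing. Per the submitters' processing notes, reads were mapped to mm10 with HISAT2 2.1.0 and DESeq was used; the gene counter, its strand setting and the annotation are not given in the sources used here. The authors deposited a table of raw counts per gene, with technical libraries of a mouse already in 1 column; their normalized table was not used. All 55413 gene IDs matched GENCODE vM21. Genes were filtered with edgeR's filterByExpr over the 4 groups (15297 kept), and each pair of groups was fitted alone with edgeR 4.0.16 (TMM, robust quasi-likelihood test, Benjamini-Hochberg adjustment over all genes, threshold 0.05) in R 4.3.3. The fit was tested on simulated data. Mice of a group are biological replicates, per the labels. Levels are CPM with TMM factors over all mice. Total counts were 4556484 to 20258619 per mouse. Precision is limited by the counts given beside low members. Promoters are from RefSeq (GRCm38.p6; 24 of 36 members matched). Alternatives were library totals, DESeq2 1.42.0, no filter, 1 fit over all groups, a replicate block, each mouse left out, and, added after the data were seen, fits without the mice of high Saa2 or muscle transcripts and without those of shifted Dbp. Members and gene lists were chosen with earlier results of these data known. Named genes are all members, Smyd3, and up to 4 members with the smallest adjusted p of each further list in a comparison described; genes of the muscle, acute-phase and clock lists were chosen after their values were seen.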

Additional observations from a re-analysis of the deposited data

Results flagged for a closer look

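In 7 of the 144 sets of 1 member in 1 group, the highest or lowest mouse stood apart, its gap to the next mouse exceeding Dixon's 95% critical value for the group's range. Chance alone gives about 1 in 20 such sets. Lyve1 was at 4.42 CPM in DEN day-133 mouse 1, against 2.88 to 3.11 CPM in the other 3. Tek, the angiopoietin receptor gene, was at 4.30 CPM in control-ASO mouse 6 (others 1.51 to 2.52 CPM) and at 1.56 CPM, 10 counts, in untreated mouse 3 (others 2.61 to 2.90 CPM). Rspo3 was at 4.68 CPM in Smyd3-ASO mouse 6, against 2.75 to 3.19 CPM in the other 5 mice. Des was at 22.6 CPM in control-ASO mouse 1, the mouse with muscle transcripts, against 1.38 to 2.55 CPM in the others. Ecm1 was at 26.3 CPM in untreated mouse 5, the untreated mouse of high Saa2, against 34.5 to 35.9 CPM in the others. Rgs5 was at 60.0 CPM in control-ASO mouse 2, against 16.2 to 31.4 CPM in the others.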

How the results depend on the processing

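With library totals in place of TMM, 10723 genes passed between control-ASO and untreated mice (7018 with TMM) and 7292 between DEN day-133 and untreated mice (4839); stellate members that passed were 7 in Smyd3-ASO mice (11) and 9 at day 133 (5) against untreated mice. Log2 values called by either scaling that turned positive were, against untreated mice, Fcgr2b (0.12) at day 133; Fcgr2b (0.14), Ehd3 (0.15), Flt4 (0.62), Tek (0.84) and Dcn (0.69) in control-ASO mice; and Stab2 (0.75), Ehd3 (0.44), Flt4 (0.31), Tek (0.81), Bmp2 (0.80), Vipr1 (0.26), Colec11 (0.42) and Dcn (0.48) in Smyd3-ASO mice, each below the shift of the median gene. A further 6 members at day 133, 2 in control-ASO mice and 2 in Smyd3-ASO mice changed sign without passing by either scaling. Without control-ASO mice 1 and 2, whose Dbp, a clock gene, was shifted (an alternative added after seeing the data), Des turned to 0.75 (adjusted p = 0.0422) between the ASO groups; all Smyd3-ASO mice are then below all remaining control-ASO mice in Dbp. Every other total of called members, both directions together, stayed within 1.5 times of its value under each alternative run, while the split by direction moved with library totals; without the mice of high Saa2 or muscle transcripts, also added after seeing the data, 4 endothelial and 2 stellate members passed between the ASO groups. Mice of the same number did not deviate together (correlations -0.12 to 0.11), so they share only a number; with a replicate block, 2543 genes passed between control-ASO and DEN day-133 mice (4131 without), and 5 endothelial and 3 stellate members between the ASO groups (6 and 3 without). Leaving out 1 mouse at a time gave 4 to 7 endothelial and 2 to 3 stellate members between the ASO groups, 11 to 14 and 8 to 11 for Smyd3-ASO over untreated, 14 to 15 and 9 for control ASO over untreated, 8 to 12 and 5 to 6 for DEN day 133 over untreated, and 4 to 6 and 5 to 7 for control ASO over DEN day 133. Precision is limited for members of few counts, such as Wnt9b (0 to 9), Vwf (1 to 69) and Rspo3 (3 to 82).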
